A study of Homo sapiens with 6 samples.

Results

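DNAJ proteins, also called HSP40s or J-proteins, are the co-chaperones that bring unfolded clients to HSP70 and switch on its ATPase through their J-domain, while nucleotide exchange factors such as the BAG proteins and HSPH1 reset the cycle. Class A members carry a zinc-finger region besides the J-domain, and class B members carry a glycine and phenylalanine-rich stretch without it. DNAJB1 is a textbook target of the heat shock factor HSF1, whereas many other members are made constitutively and serve a fixed compartment.

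The genes described here were 10 members of these classes: DNAJA1, DNAJA2, DNAJA3 and DNAJA4 of class A, and DNAJB1, DNAJB2, DNAJB4, DNAJB5, DNAJB6 and DNAJB12 of class B. They were chosen by name, out of 24166 genes in the deposited assemblies, and were found at 11 of the 117001 loci of the deposited comparison, DNAJB2 at a pair of them. The RNA came from HEK293, an established human embryonic kidney cell line kept at 37°C, as rRNA-depleted total RNA. Control cells (3 libraries) were left untreated, and heat shock cells (3 libraries) were taken at passaging and kept for 30 minutes in a tube in a water bath at 45°C. The labels give no recovery time, and the study describes collection at 30 minutes post heat shock. The controls are not stated to have spent the same time in a tube, so the bath and the handling cannot be told apart. All libraries come from this 1 line, and in bulk RNA the number of cells expressing a gene and its RNA per cell cannot be told apart. Levels are FPKM, the fragments of a transcript scaled by its length and by the mapped fragments of the library, as estimated by Cufflinks and summed over the transcripts of a gene.

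The scale of the libraries set much of what the raw FPKM showed. The 983 genes above 10 FPKM in all 6 libraries lay together at 2.15 and 2.34 times their geometric mean over the libraries in heat shock 1 and heat shock 2, at 0.439 in control 2 and 0.492 in heat shock 3, and at 0.948 and 0.967 in control 1 and control 3. Levels divided by these values are called scaled below, and the deposited FPKM is given beside them. Control 1, control 2 and heat shock 3 also held 141632 to 194489 single-exon transcripts without a strand, against 17304 to 45600 in the others. The sequencing depth is known only as relative coverage, 1.00 to 2.03. Of the HEK293 markers, VIM was at 85.3 FPKM or more in every library and PAX8 was at 0 to 1.14 FPKM, and the 9 together summed to 111 to 284 FPKM in the controls and 144 to 1040 in heat shock. The 10 markers of other cell types summed to 3.60 to 10.5 and 4.49 to 9.83 FPKM, and their part in the results was not tested.

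Because HSF1 binds inverted repeats of a short unit, the promoters of the members were read for that unit, and those of the member that differed most, DNAJB1, of DNAJA1, and of the other member with a full repeat, DNAJB6, are shown. The windows run from 250 bases before to 50 bases after the start in RefSeq (GRCh38.p14), and the motifs were GAANNTTCNNGAA or TTCNNGAANNTTC (3 units) and GAANNTTC or TTCNNGAA (2 units, which also lie inside every 3-unit match), read on both strands. Capitals mark the matches.
DNAJB1, chr19:14518348-14518647, minus strand: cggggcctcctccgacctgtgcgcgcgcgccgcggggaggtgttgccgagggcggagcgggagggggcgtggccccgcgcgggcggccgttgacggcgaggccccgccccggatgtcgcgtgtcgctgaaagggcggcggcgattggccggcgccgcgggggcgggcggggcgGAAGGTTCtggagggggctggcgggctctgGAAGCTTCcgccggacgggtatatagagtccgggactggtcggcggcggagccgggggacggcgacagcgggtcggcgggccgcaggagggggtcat
DNAJA1, chr9:33025023-33025322, plus strand: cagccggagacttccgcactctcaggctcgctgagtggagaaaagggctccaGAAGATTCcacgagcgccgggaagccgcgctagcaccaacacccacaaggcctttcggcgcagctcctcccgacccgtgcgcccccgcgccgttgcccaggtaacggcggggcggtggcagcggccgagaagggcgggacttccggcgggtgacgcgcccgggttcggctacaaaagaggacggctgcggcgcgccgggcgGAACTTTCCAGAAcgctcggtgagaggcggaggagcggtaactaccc
DNAJB6, chr7:157336754-157337053, plus strand: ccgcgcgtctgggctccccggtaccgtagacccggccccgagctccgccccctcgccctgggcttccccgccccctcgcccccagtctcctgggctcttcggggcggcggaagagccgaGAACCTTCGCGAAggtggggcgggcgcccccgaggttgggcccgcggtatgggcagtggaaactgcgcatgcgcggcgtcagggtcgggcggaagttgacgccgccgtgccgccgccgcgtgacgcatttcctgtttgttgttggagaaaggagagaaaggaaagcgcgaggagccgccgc

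The 3-unit motif was in 0.49% of all 35116 RefSeq promoters and the 2-unit motif in 13.5%. For each member, the promoter closest to the start of its deposited transcript was used. Positions are counted from the RefSeq start. DNAJA1 held a 3-unit match beginning at base 4, where this start lies 62 bases from the deposited one, and DNAJB6 held one at -131. The DNAJB1 promoter had no 3-unit match in this window but a pair of separate 2-unit matches, at -77 and -47. DNAJB4 had a 2-unit match at -98, and the windows used for the other 6 members had none. A further RefSeq promoter of DNAJA4, whose start lies 85 bases from a deposited start, held a pair of 2-unit matches. These are matches of letters and not measured binding.

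DNAJB1 was the member with the largest difference. DNAJB1 (HSP40, NM_006145, GRCh37 chr19:14625582-14629201, minus strand) had 7.32, 4.84 and 9.18 FPKM in controls 1, 2 and 3 and 121, 116 and 34.0 FPKM in heat shock 1, 2 and 3. Every heat shock library lay above every control, with the lowest, heat shock 3, being one of the libraries with a low scale. On the scaled levels DNAJB1 was at 7.72, 11.03 and 9.49 in the controls against 56.1, 49.6 and 69.0 in the heat shock libraries, so that heat shock 3 became the highest. The group means were 9.41 ± 1.65 and 58.3 ± 9.88 scaled FPKM (SD, n = 3), and 7.11 ± 2.17 and 90.3 ± 48.9 as deposited.

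**Figure D1:**
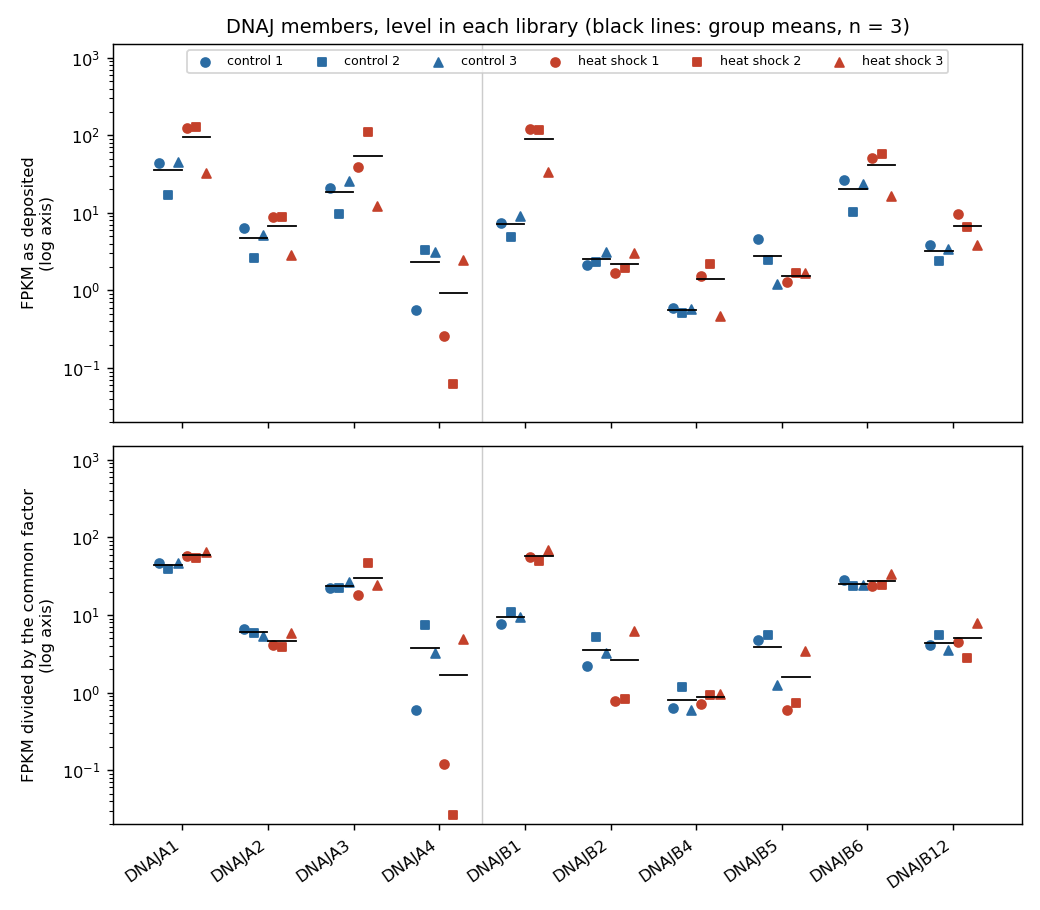
Level of each DNAJ member in each library, as deposited FPKM (top) and as FPKM divided by the common scale of the abundant genes (bottom), on log axes. Circles, squares and triangles are libraries 1, 2 and 3 of controls (blue) and heat shock (red), and black lines are group means. For DNAJB1 the scaled controls lie between 7.72 and 11.03 and the heat shock libraries between 49.6 and 69.0, while the groups of most other members overlap.

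The fold change of DNAJB1 on the log2(FPKM + 1) scale was 3.33 (SE 0.83, 95% interval 1.52 to 5.13) as deposited and 2.51 (SE 0.19, 95% interval 2.04 to 2.98) scaled, which is 5.69-fold with an interval of 4.10 to 7.89. By limma across 13025 genes it did not pass the test: the unadjusted p was 0.0016 as deposited and 1.49e-05 scaled, and the adjusted p was 0.710 and 0.132. The scaled p of DNAJB1 was the smallest of all genes tested, but the gene ranked 15th as deposited and 2nd with median-of-ratios over all genes. With FPKM averaged over all exon bases it ranked 33rd as deposited and 10th scaled. The exact permutation test gave 0.1 on either scale, the smallest p that 3 libraries against 3 can give. Over all alternatives its adjusted p ranged from 0.0634 to 0.998. Without heat shock 3 the deposited log2 change was 3.92, with an adjusted p of 0.0634.

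The called genes were few in the whole data set, which is the background for the members. At an adjusted p under 0.05 and more than 2-fold, 3 of the 13025 genes averaging 1 FPKM or more (0.023%) were called as deposited, and 0 (0%) when scaled. The 3 were small RNA genes (SCARNA11, SNAR-E and SNORA30, named after their values were seen), and no member was called on either scale. At an unadjusted p under 0.05 and more than 2-fold, DNAJB1 alone of the 9 tested members passed, upward on both scales. The share of all genes passing upward was 2.06% as deposited and 0.322% scaled, and downward 1.6% and 1.71%. DNAJB4, with a mean under 1 FPKM, was not tested. The median log2 change was 0.81 over the members and 0.45 over all genes as deposited, and 0.09 and -0.21 scaled.

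A ratio of genes within a library does not depend on its scale. DNAJA2, a cytosolic class A member, was used as the reference. The share of all genes whose ratio to it does not overlap between groups was not computed. The ratio of DNAJB1 to DNAJA2 was 1.16, 1.87 and 1.77 in the controls against 13.7, 13.0 and 11.9 in the heat shock libraries. The groups did not overlap, and the mean log2 difference was 3.04, or 8.20-fold, with SDs of 0.37 and 0.11 on the log2 scale. The exact permutation p was 0.1, and 0.3 after adjustment over the 9 ratios. The size depended on the measure: it was 5.46-fold on the exon mean (FPKM averaged over all exon bases) and 5.30-fold with DNAJA3 as the reference, in both cases without overlap, and DNAJA2 itself had a scaled log2 change of -0.34. DNAJB1 was also set against DNAJA1, where the ratio was 0.165, 0.285 and 0.202 in the controls against 0.981, 0.923 and 1.05 in the heat shock libraries. DNAJB1 stood near the level of DNAJA1 in the heat shock libraries and below it in every control.

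**Figure D2:**
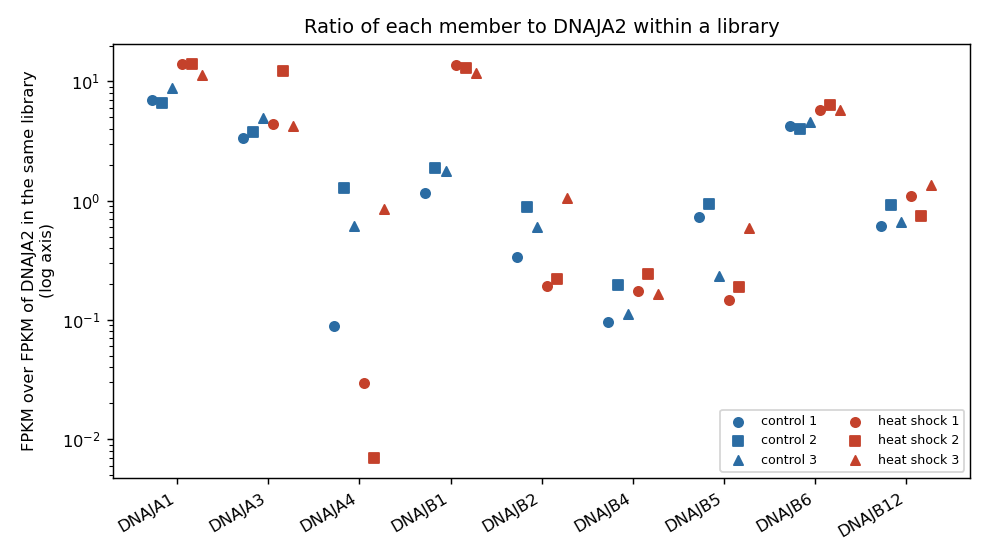
FPKM of each member over the FPKM of DNAJA2 in the same library (log axis), with controls in blue and heat shock in red. The DNAJB1 ratio lies between 1.16 and 1.87 in the controls and between 11.9 and 13.7 after heat shock, and the DNAJA1 and DNAJB6 ratios are separated between groups by much less.

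The DNAJB1 value was not carried by the same transcript in all libraries. In heat shock 3 the annotated 3-exon transcript held all of the 34.0 FPKM. In heat shock 1 the annotated transcript was listed at 0, and a single-exon assembled transcript (chr19:14625517-14627160) held 121 FPKM, with a Cufflinks interval of 115 to 126. In heat shock 2 a similar transcript (chr19:14625580-14627149) held 107 FPKM and the annotated one 8.71. Both assembled transcripts spanned part of intron 2 and the last exon. In the controls the annotated transcript held 60.4% to 72.3% of the DNAJB1 FPKM.

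Intron 2 of DNAJB1 (GRCh37 chr19:14626983-14627277, minus strand, 295 bases) is shown because the assembled transcripts reach into it. Capitals mark the 167 bases (56.6%) that both covered, up to the AG before exon 3.
DNAJB1 intron 2: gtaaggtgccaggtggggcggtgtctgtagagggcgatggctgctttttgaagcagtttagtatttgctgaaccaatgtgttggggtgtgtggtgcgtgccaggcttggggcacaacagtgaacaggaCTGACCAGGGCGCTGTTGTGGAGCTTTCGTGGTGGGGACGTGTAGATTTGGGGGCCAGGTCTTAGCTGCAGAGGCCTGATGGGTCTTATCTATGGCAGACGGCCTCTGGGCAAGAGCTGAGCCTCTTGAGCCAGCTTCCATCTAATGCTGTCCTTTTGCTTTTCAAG

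Averaged over each segment, exon 3 was at 121, 116 and 34.0 FPKM in heat shock 1, 2 and 3, and at 7.32, 4.84 and 9.18 FPKM in the controls. Intron 2 was at 73.0, 60.8 and 0 FPKM after heat shock and at 2.03, 1.70 and 0 in the controls. Exon 1 was at 0, 8.71 and 34.0 FPKM after heat shock and at 5.29, 2.92 and 5.61 in the controls. Exon 3 was thus higher in every heat shock library than in any control. As deposited, exon 1 was above all controls in heat shock 2 and heat shock 3 and listed at 0 in heat shock 1. These segment values are not scaled. The scale was 2.34 in heat shock 2 against 0.439 to 0.967 in the controls. Once scaled, exon 1 of heat shock 2 was therefore below every control. The assembled transcripts of heat shock 1 and 2 did not reach exon 2. Exon 2 thus held the annotated transcript alone there, at 0 and 8.71 FPKM as deposited. In these libraries the scaled rise lay in exon 3 and the covered part of intron 2. Averaging FPKM over all exon bases gave a DNAJB1 log2 change of 2.999 as deposited and 2.17 scaled, with adjusted p of 0.592 and 0.631. Counting annotated transcripts alone left 0.35 (adjusted p = 0.938). What the reads over exons 1 and 2 in heat shock 1 were assigned to was not tested.

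**Figure D3:**
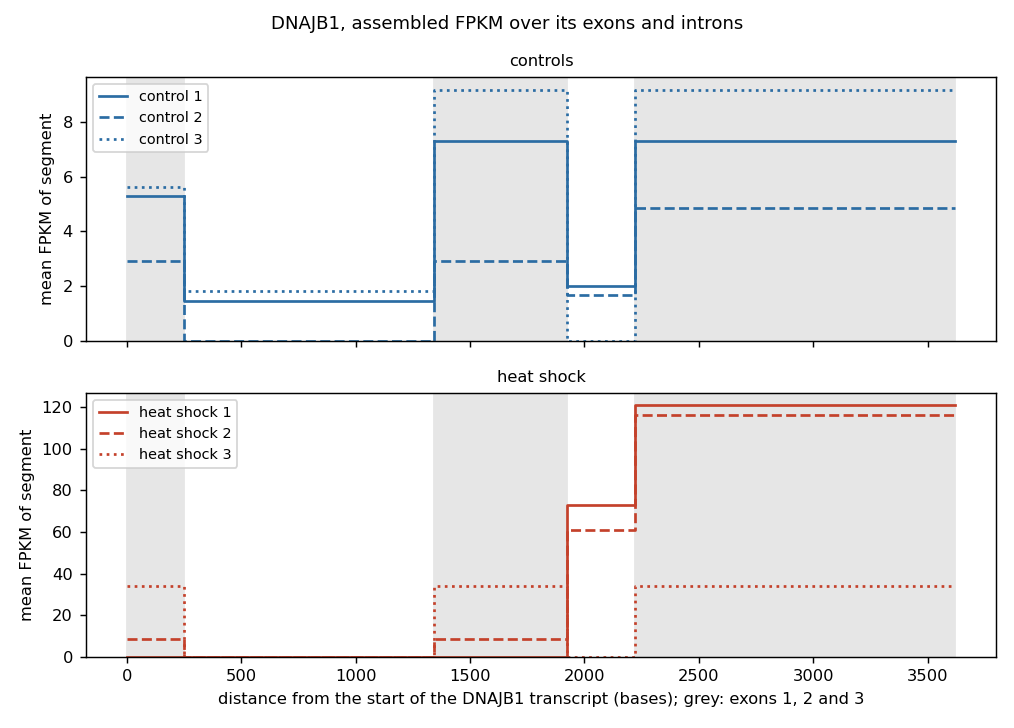
Mean assembled FPKM of each exon (grey) and intron of DNAJB1 against the distance from its start, for the controls (top) and heat shock libraries (bottom), on separate linear axes. Heat shock 1 and 2 are at 121 and 116 FPKM over exon 3 and reach into intron 2, while heat shock 3 is at 34.0 over all 3 exons.

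DNAJA1 is an abundant cytosolic class A partner of HSP70. DNAJA1 (NM_001539, GRCh37 chr9:33025209-33039062, plus strand) had 44.4, 17.02 and 45.4 FPKM in the controls and 123, 126 and 32.2 FPKM after heat shock. As deposited the groups overlapped through heat shock 3, and the log2 change was 1.26 (SE 0.94, adjusted p = 0.710). Scaled, it was at 46.8, 38.7 and 46.9 in the controls against 57.2, 53.8 and 65.5 in the heat shock libraries, without overlap. The scaled log2 change of DNAJA1 was 0.41 (SE 0.13), 1.33-fold with an interval of 1.06 to 1.66, at an unadjusted p of 0.023 and an adjusted p of 0.913. Groups without overlap upward occurred in 3.71% of all genes as deposited and 2.01% scaled. Among the members these were DNAJB1 and DNAJB12 as deposited, and DNAJB1 and DNAJA1 scaled. Downward the shares were 2.26% and 5.38% of all genes, and no member was among them. The ratio of DNAJA1 to DNAJA2 was 7.06, 6.58 and 8.73 in the controls against 14.0, 14.1 and 11.3 in the heat shock libraries (exact permutation p = 0.1, adjusted p = 0.3), and on the exon mean the groups of this ratio overlapped. With DNAJA3 as the reference they also overlapped, at 1.14-fold (exact permutation p = 0.9).

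The scaled change of DNAJB1 exceeded that of DNAJA1 in every pairing of libraries, since the DNAJB1 to DNAJA1 ratio did not overlap between groups (4.65-fold, exact permutation p = 0.1). On the exon mean that ratio was 0.160, 0.243 and 0.193 in the controls against 0.615, 0.605 and 1.31 in the heat shock libraries.

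**Figure D4:**
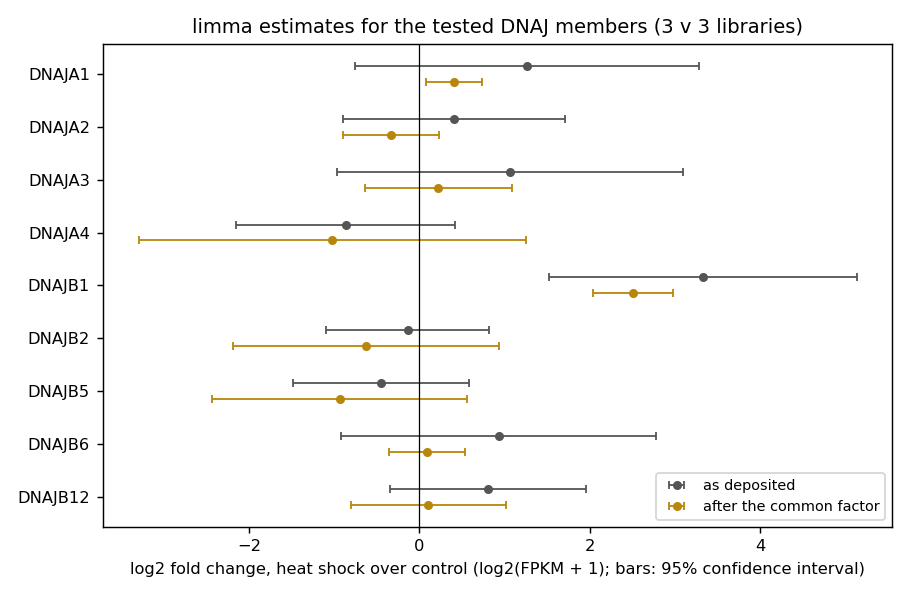
log2 fold change (heat shock over control) of the 9 tested members with its 95% confidence interval from limma, as deposited (grey) and scaled (gold). DNAJB1 is at 3.33 and 2.51 with intervals above 0, DNAJA1 is at 0.41 with a scaled interval of 0.08 to 0.73, and every other interval includes 0.

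The other class A members did not separate the groups. DNAJA2 had 6.29, 2.59 and 5.20 FPKM in the controls and 8.80, 8.94 and 2.87 FPKM after the heat shock. The log2 change was 0.41 as deposited and -0.34 scaled (95% interval -0.90 to 0.23). Its sign therefore depended on the scale. DNAJA3, which works in mitochondria, had 21.0, 9.67 and 25.4 FPKM in the controls and 38.5, 110 and 12.1 FPKM after heat shock. In heat shock 2, 103 of the 110 FPKM belonged to an assembled transcript of 893 bases, and averaged over the exons DNAJA3 was at 9.75, 5.68 and 14.7 FPKM in the controls against 37.1, 34.4 and 7.30 in the heat shock libraries. The scaled log2 change of DNAJA3 was 0.22 (95% interval -0.64 to 1.09). DNAJA4 had 0.56, 3.28 and 3.16 FPKM in the controls and 0.26, 0.06 and 2.43 FPKM after heat shock, with a log2 change of -0.86 as deposited and -1.02 scaled (adjusted p = 0.710 and 0.913). Low values of DNAJA4 occurred in both groups. DNAJA4 shares up to 277 bases of exon with an antisense lncRNA, from which it cannot be told apart unless strand was kept. Whether strand was kept in the libraries is not stated. The alignment options listed in the study name no strand setting, and every library held single-exon transcripts without a strand.

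Among class B members, DNAJB6, known for keeping aggregation-prone proteins soluble, was the most abundant in controls. DNAJB6 had 26.4, 10.3 and 23.9 FPKM in the controls and 50.8, 56.9 and 16.7 FPKM after heat shock. Scaled, it was at 27.9, 23.3 and 24.7 against 23.6, 24.3 and 33.9, a log2 change of 0.09 (95% interval -0.36 to 0.53) with overlapping groups. The DNAJB6 to DNAJA2 ratio was 4.197, 3.96 and 4.59 in the controls against 5.77, 6.36 and 5.82 in the heat shock libraries, 1.41-fold, without overlap (exact permutation p = 0.1, adjusted p = 0.3). Relative to DNAJA2, DNAJB6 was higher in every heat shock library than in any control, while its scaled groups overlapped. With DNAJA3 as the reference the groups of the ratio overlapped, at 0.91-fold. The DNAJB6 groups did not overlap with median-of-ratios over all genes (1.28-fold) or on the scaled exon mean (1.14-fold). Their separation thus depended on the reference and the measure. The share of all genes without overlap was not computed for these measures or for ratios to DNAJA2. DNAJA2 itself was lower in scaled heat shock 1 and 2 (4.08 and 3.82) than in any control (5.37 to 6.64), with heat shock 3 at 5.82.

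DNAJB12, a membrane protein of the endoplasmic reticulum, had 3.86, 2.39 and 3.47 FPKM in the controls and 9.61, 6.59 and 3.89 FPKM after heat shock. The deposited groups did not overlap, but the scaled ones did, at 4.07, 5.45 and 3.59 against 4.46, 2.82 and 7.91. Its log2 change was 0.81 (adjusted p = 0.710) as deposited and 0.10 (adjusted p = 0.958) scaled. DNAJB4, the lowest member by its mean in the controls, was at 0.51 to 0.60 FPKM there and 0.48 to 2.18 FPKM after heat shock.

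DNAJB2 and DNAJB5 were low in all libraries. DNAJB2, a member best known from neurons, had 2.10, 2.31 and 3.14 FPKM in the controls and 1.68, 1.95 and 3.04 FPKM after heat shock. DNAJB5 had 4.57, 2.44 and 1.20 FPKM in the controls and 1.29, 1.69 and 1.68 FPKM after heat shock. The scaled log2 change was -0.62 (95% interval -2.19 to 0.94) for DNAJB2 and -0.94 (95% interval -2.43 to 0.55) for DNAJB5. In scaled units DNAJB2 and DNAJB5 were lowest in heat shock 1 and 2 (0.60 to 0.83) and at 6.17 and 3.41 in heat shock 3, so the heat shock libraries differed among themselves by more than the group means.

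The order of the scaled levels in the controls was DNAJA1 (44.2), DNAJB6 (25.3), DNAJA3 (23.5), DNAJB1 (9.41), DNAJA2 (5.97), DNAJB12 (4.37), DNAJB5 (3.87), DNAJA4 (3.78), DNAJB2 (3.57) and DNAJB4 (0.80). DNAJA1 stood clear of DNAJB6, and DNAJB1 stood clear of DNAJA3 above it and DNAJA2 below it. DNAJB6 and DNAJA3 overlapped, as did DNAJA2 with DNAJB12, and DNAJB12, DNAJB5, DNAJA4 and DNAJB2 with one another. DNAJB4 lay below DNAJB2 in every control but overlapped DNAJA4, which was lower than DNAJB4 in control 1. After heat shock the upper part of the order was DNAJA1 (58.8), DNAJB1 (58.3), DNAJA3 (29.8) and DNAJB6 (27.2), with DNAJA1 and DNAJB1 overlapping. Among the tested genes DNAJB1 stood at the 76.0th to 78.5th percentile of FPKM in the controls and at the 96.0th to 97.0th after heat shock. The percentiles of DNAJA1 were 94.7 to 95.8 and 96.3 to 96.9.

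Within the 3 libraries with few strandless transcripts, scaled DNAJB1 was at 9.49 in the control and at a mean of 52.9 in the 2 heat shock libraries, 5.57-fold higher. Within the 3 with many, it was at a mean of 9.37 in the 2 controls and at 69.0 in the heat shock library, 7.36-fold higher. For DNAJA1 the same ratios were 1.18 and 1.53. The scaled ratios changed direction between the sets for DNAJA4 (0.023 and 1.23), DNAJB2 (0.25 and 1.65) and DNAJB6 (0.97 and 1.32). Those of DNAJA2, DNAJA3, DNAJB4, DNAJB5 and DNAJB12 kept their direction. As deposited the ratios were 12.9 and 5.59 for DNAJB1 and 2.75 and 1.05 for DNAJA1. Among the 3 libraries with many, deposited DNAJA1 was higher in control 1 (44.4 FPKM) than in heat shock 3 (32.2 FPKM). Each set has a single library of 1 group, so these ratios carry no test, and the part of the strandless transcripts in the result was not tested.

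Isoforms could not be followed reliably. The share of a member's FPKM in its annotated transcripts ran from 0% to 100% between libraries for DNAJA4, DNAJB1, DNAJB2, DNAJB4 and DNAJB5. For the 14 annotated isoforms of DNAJA3, DNAJA4, DNAJB2, DNAJB5, DNAJB6 and DNAJB12, the smallest exact permutation p of a difference in share was 0.2, for a DNAJB5 isoform, with an adjusted p of 0.933. RefSeq lists 8 pseudogenes of DNAJB6, 6 of DNAJA1, 2 of DNAJB1 and 1 of DNAJB12, and how reads were shared with such near-identical copies is not recorded in the values.

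The HSP70s, their exchange factors and their regulators formed a list of 28 genes, of which 24 were tested. None was called on either scale. HSPA1A and HSPA1B, the stress-inducible HSP70 pair, were the 2 of 24 that passed the unadjusted rule upward, on both scales, against 2.06% of all genes as deposited and 0.322% scaled. HSPA1B had 8.63, 6.59 and 9.55 FPKM in the controls and 86.5, 99.9 and 22.9 FPKM after heat shock, or 9.11, 15.0 and 9.87 against 40.2, 42.7 and 46.6 scaled. Its scaled log2 change was 1.87 (SE 0.21, adjusted p = 0.231). HSPA1A was at 5.27, 7.72 and 4.98 scaled in the controls against 13.9, 13.4 and 14.0 in the heat shock libraries, with a log2 change of 1.098 (SE 0.20, adjusted p = 0.913). The coding parts of HSPA1A and HSPA1B are near-identical copies, so the split between them is uncertain.

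Scaled, 5 of the 24 lay without overlap above the controls, and 0 below, against 2.01% and 5.38% of all genes. Besides HSPA1A and HSPA1B these were HSPA8, the constitutive cytosolic HSP70, and the HSP110-type exchange factors HSPH1 and HSPA4L, of which HSPA8 and HSPA4L were named after their values were seen. On the scaled exon mean HSPH1 and HSPA4L overlapped the controls. HSPA8 was at 98.9, 98.9 and 92.6 in the controls against 119, 127 and 120 in the heat shock libraries (log2 change 0.33, SE 0.08, adjusted p = 0.913). HSPH1 had a scaled log2 change of 0.35 and BAG3, a BAG-domain exchange factor of stressed cells, 0.34, while HSPBP1 was at -0.89 and BAG6 at -0.71 (adjusted p = 0.913 for all 4). On the scaled exon mean HSPBP1 was at -0.017 and BAG6 at 0.079, so neither lower value held there. The ratio of DNAJA1 to HSPA8 was 0.473, 0.392 and 0.507 in the controls against 0.482, 0.422 and 0.547 in the heat shock libraries, with overlapping groups. The ratio of DNAJB1 to HSPA8 was 0.078, 0.111 and 0.102 in the controls against 0.473, 0.389 and 0.576 in the heat shock libraries. The median scaled log2 change of the 24 was -0.02, against -0.21 for all genes.

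A further 39 J-domain genes outside the 10 members were mostly DNAJC genes, of which 29 were tested and none was called. At the unadjusted rule 1 passed upward as deposited (DNAJC4) and 1 downward when scaled (DNAJC6), against 2.06% and 1.71% of all genes. No gene of this list lay above the controls without overlap on either scale. Below them lay 1 as deposited (DNAJC6), against 2.26% of all genes, and 3 when scaled, against 5.38%, namely DNAJC12, DNAJC14 and DNAJC6, the last a clathrin-uncoating J-protein named after its values were seen. DNAJC6 had 3.13, 2.01 and 7.18 FPKM in the controls and 1.93, 1.59 and 0.98 FPKM after heat shock, and on the exon mean its groups overlapped, at a log2 change of 0.23 as deposited and -0.23 scaled. DNAJC14 was at 6.19, 11.9 and 8.04 scaled in the controls against 5.31, 3.32 and 3.72 in the heat shock libraries (log2 change -0.90, adjusted p = 0.913), but its deposited log2 change was -0.09. DNAJC4 had 24.3 FPKM in heat shock 1, 2.47, 2.23 and 2.30 FPKM in control 2, heat shock 2 and heat shock 3, and was listed at 0 in control 1 and control 3. The scaled log2 changes of DNAJC11, DNAJC9 and DNAJC2 were 0.72, -0.38 and -0.33, and on the scaled exon mean 0.023, -0.20 and -0.024. The median scaled log2 change over the list was -0.10.

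**Figure D5:**
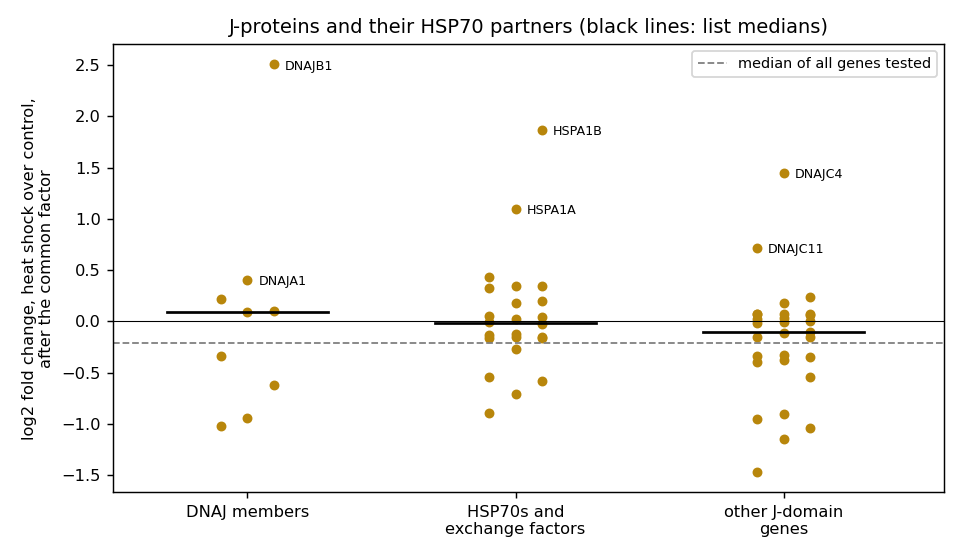
Scaled log2 fold change of each tested gene (points) in the DNAJ members, the HSP70s with exchange factors and regulators, and the other J-domain genes. List medians are black lines, and the median of all genes is a dashed line at -0.21. DNAJB1 (2.51), HSPA1B (1.87) and DNAJC4 (1.45) are the highest points of their lists, and the list medians are 0.09, -0.02 and -0.10.

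Genes with a pattern like DNAJB1 were sought among 2917 genes averaging 10 FPKM or more, by the root mean square difference of centred log2 scaled levels over the 6 libraries. The closest was HSPA1B (0.35), followed by COPS5 (0.43), a subunit of the COP9 signalosome, BRD8 (0.61), SDHAP3 (0.65), a pseudogene with near-identical copies, and HSPA1A (0.72), where the spread of DNAJB1 itself was 1.27. The minimum of 10 FPKM was a mean over all 6 libraries. In the controls these 5 genes averaged 4.40 to 8.26 deposited FPKM, so they passed it only through the heat shock libraries. COPS5 was at 8.95, 8.11 and 9.72 scaled in the controls against 33.7, 26.9 and 35.5 in the heat shock libraries (log2 change 1.73, adjusted p = 0.132). This rested on the summed transcripts: on the scaled exon mean COPS5 overlapped between groups at a log2 change of 0.12 (adjusted p = 0.880). BRD8 and SDHAP3 likewise went from 1.92 and 1.22 to 0.31 and 0.085, with SDHAP3 overlapping, whereas HSPA1B and HSPA1A were at 1.80 and 1.08 without overlap. Among the genes closest to DNAJA1 were JUN (0.09), ZFAS1 (0.11), ZNF593 (0.12) and HSPH1 (0.12), where the spread of DNAJA1 was 0.24. HSPH1, at a mean of 7.75 deposited FPKM in the controls, also passed the minimum only through heat shock. JUN, a subunit of the AP-1 transcription factor, was at 15.2, 14.8 and 15.4 scaled in the controls against 20.2, 19.1 and 20.8 in the heat shock libraries (log2 change 0.38, adjusted p = 0.913). These distances describe 6 libraries and carry no test.

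The deposited table also holds 1 pooled FPKM for each group, as the authors' values without a spread. The pooled value of DNAJB1 was 8.99 in controls and 176 after heat shock, and that of DNAJA1 was 69.7 and 358. For 8 of the 10 members the pooled heat shock value lay above every single heat shock library, and for DNAJA1 it was 358 against a highest library of 126. The pooled and the per-library values were not combined.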

How the data were processed

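RNA from 3 control and 3 heat shocked HEK293 samples was grouped by the sample titles. As the submitters' processing notes and the study's methods state, reads were checked with FastQC 0.10.1, trimmed with Trimmomatic 0.3.0, aligned to hg19 with TopHat2 and assembled for each library with Cufflinks 2.0.2. The authors deposited each assembly, whose attribute text gives an FPKM for every transcript, and a table with 1 pooled FPKM for each group and locus. Its columns of fold changes, p-values and q-values were not used.

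FPKM was summed over the transcripts of each gene in each library, and 96.7% of annotated accessions received a symbol through RefSeq. The 13025 genes averaging 1 FPKM or more entered the test on log2(FPKM + 1), which understates changes of low genes, with limma 3.58.1 (trend, Benjamini-Hochberg) in R 4.3.3. A call needed an adjusted p under 0.05 and over 2-fold. Single ratios were compared by the exact permutation test, two-sided. The common factor is the median-of-ratios over 983 abundant genes. Values are for samples described as treated and sequenced in triplicate, and p-values measure the spread between these samples.

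The alternatives were median-of-ratios over all genes, the common factor, TPM, a pseudocount of 0.1, no minimum or one of 10 FPKM, no trend, annotated transcripts alone, a replicate block, a term for strandless transcripts, and leaving out each library. The exon mean was added after the values were seen. The fit was tested on simulated data, where recovery of changed genes was required only at 0.1 times the spread of these data. That test does not show what the fit can find at their full spread. The members and lists were chosen with earlier results of these data known. All 10 members are named, with up to 6 genes of each list with the largest scaled change and a mean of 5 FPKM or more, and the 5 genes most like DNAJB1 and DNAJA1, except 1 gene that is not reported here. Promoters are from RefSeq (GRCh38.p14, all 10 members matched), overlapping genes from GENCODE on GRCh37, and intron sequence from GRCh37.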

Additional observations from a re-analysis of the deposited data

How the results depend on the processing

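No DNAJ member, HSP70, exchange factor or other J-domain gene was called under any alternative with an adjusted p, including each library left out. With the p unadjusted, 1 member (DNAJB1), 2 of the HSP70 list and 1 other J-domain gene passed. DNAJB1 kept a positive change in all 26 alternatives (0.35 to 3.92), DNAJA1 in all 26 (0.28 to 1.90), and of 229 alternative values for the members 21 changed sign. Over all genes, 2 were called higher and 1 lower as deposited. These counts were 1 and 0 with median-of-ratios, TPM or no trend, 4 and 0 with a minimum of 10 FPKM, and 0 and 0 with no minimum, annotated transcripts alone, the common factor (alone, with the replicate block, with the strand term) or the exon mean with it. They were 268 and 208 with the p unadjusted and 0 to 9 and 0 to 1 without one library. The cause of these shifts was not tested.

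The replicate numbers come from the sample titles, which do not say whether same-numbered samples were handled together. The correlation of deviations of same-numbered libraries was 0.03, -0.33 and -0.38, and not every library correlated best with its own number. Control 2 correlated best with heat shock 3 (0.44), and both had a low scale, so this check cannot decide on pairing. The main fit did not pair the libraries. With the replicate block 12 genes were called higher and 5 lower, and no member.

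Some log2 changes reversed relative to the deposited scale. With the common factor, with or without the replicate block, DNAJA2 was at -0.34, BAG6 at -0.71, DNAJC12 at -0.54, DNAJC9 at -0.38 and DNAJC2 at -0.33. With median-of-ratios these were -0.10, -0.43, -0.29, -0.12 and -0.063, with TPM -0.20, -0.54, -0.41, -0.23 and -0.17, and with the common factor and strand term -0.23, -1.06, -0.67, -0.53 and -0.32. The strand term alone gave -0.59 for BAG6, -0.28 for DNAJC12 and -0.12 for DNAJC9. The exon mean gave 0.79 for HSPBP1, 0.28 for DNAJC14, 0.23 for DNAJC6 and -0.18 for the DNAJB12 to DNAJA2 ratio. With the common factor too it gave -0.12 for DNAJA2, -0.24 for DNAJB12, -0.21 for DNAJC12, -0.20 for DNAJC9 and -0.024 for DNAJC2. Annotated transcripts alone gave 0.18 for DNAJA4, 0.99 for DNAJB2, 0.56 for DNAJB5, -0.51 for DNAJB12, 2.53 for HSPBP1, -1.56 for BAG6, 1.19 for DNAJC14, 0.87 for DNAJC6 and -2.12 for SDHAP3, and -0.32 and -0.053 for the DNAJA3 and DNAJB6 to DNAJA2 ratios. With DNAJA3 as reference the ratio changes of DNAJB4, DNAJB6 and DNAJB12 were -0.047, -0.14 and -0.12. Leaving out each library in turn, on either scale, gave -0.49 to 0.86 for DNAJA2, -0.16 to 1.85 for DNAJA3, -0.073 to 1.47 for DNAJB6, -0.22 to 1.098 for DNAJB12, -1.26 to 0.34 for HSPBP1, -1.13 to 1.30 for BAG6, -1.097 to 0.53 for DNAJC14, -0.72 to 0.87 for DNAJC12, -0.53 to 1.11 for DNAJC9 and -0.44 to 1.22 for DNAJC2. The depth is known only in relative terms, so no counting limit could be given for the low members DNAJA4, DNAJB2, DNAJB4 and DNAJB5.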
